A study of Mus musculus with 2 samples.

Results

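The transforming growth factor β (TGFβ) superfamily comprises secreted dimers that bind pairs of serine/threonine kinase receptors, which in turn phosphorylate SMAD transcription factors. TGFβs, activins and myostatin signal mainly through SMAD2 and SMAD3, whereas bone morphogenetic proteins (BMPs) signal through SMAD1, SMAD5 and SMAD9. Secreted antagonists bind the ligands and keep them from their receptors. In skeletal muscle, TGFβ1 and myostatin are known to restrain the proliferation and differentiation of myoblasts, follistatin blocks myostatin and activins, and BMP signals help to keep satellite cells cycling.

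Here 10 genes of this family were examined, of 19938 genes that could be named on the array. They are the TGFβ ligands *Tgfb1*, *Tgfb2* and *Tgfb3*, the BMP ligands *Bmp4* and *Bmp5*, the inhibin and activin subunits *Inha* and *Inhba*, the myostatin gene *Mstn*, and the antagonists *Grem1* and *Fst*. Each is read by 1 probe set whose only gene symbol is that of the gene. In the order just given, these are probe sets 10551185, 10360920, 10401673, 10419261, 10587231, 10347669, 10403743, 10346250, 10485948 and 10412260. The group was chosen by function and also from the difference between these arrays, on which it had been seen that several of its genes were higher after *Mll1* deletion. The differences of the 10 genes are therefore a description, and nothing is supported by how many of them lie on one side.

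RNA came from 1 line of primary myoblasts of the genotype Rosa-CreER / MLL1 fl/fl, prepared from hind limb muscle of mice a few weeks old, whose age the labels do not give. Cells carrying CD11b, SCA1, CD45 or CD31 had been removed and cells carrying α7-integrin kept, and the myoblasts were grown in medium with 20% serum and 5 ng/ml FGF. CreER is expressed from the *Rosa26* locus, hence in all cells, and enters the nucleus only with 4-hydroxytamoxifen. The control culture received 0.01% ethanol for 7 days, and the *Mll1* cKO culture (MLL1 KO in the labels) received 500 nM 4-hydroxytamoxifen in the same ethanol for 7 days. Both were harvested after a washout of 3 days by the labels, while the methods name a shorter one. Each condition has 1 Affymetrix MoGene 1.0 ST array, so no difference has an error or a test, and precision is limited by how few arrays there are. The series description and the legends of the study name different floxed exons. Exposure to 4-hydroxytamoxifen and loss of MLL1 cannot be told apart in this design.

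The *Mll1* gene, *Kmt2a*, had log2 signals of 9.44 in control and 9.66 in *Mll1* cKO. Its probe set covers the whole transcript, most of which the deletion leaves in place, so these signals do not check the deletion. The study checked it by RT-qPCR, western blot, immunostaining and the array probes along the transcript. All 10 myoblast markers examined, among them *Myod1*, *Pax7* and *Des*, had log2 signals over 7 in both arrays, as the label of the cells would have it. This list leaves out the myoblast factor *Myf5*, which the study reports as the most strongly decreased probe set after *Mll1* deletion. As a guide to the signal of genes not expected in muscle, 95% of 1035 odorant receptor probe sets lay at or below 4.90 in control and 4.62 in *Mll1* cKO. Their median was itself lower in *Mll1* cKO, at 3.23 in control and 3.11 in *Mll1* cKO. A fall at such signals is therefore not read as fewer cells. Of 10 fibroblast, 6 endothelial and 6 immune markers, 5, 2 and 2 exceeded the guide in both arrays. None of the markers of these lists was higher in *Mll1* cKO. Their summed linear signals were 587 and 428 for the fibroblast, 156 and 133 for the endothelial and 149 and 123 for the immune list, in control and *Mll1* cKO. The brightest fibroblast marker, *Osr1*, had log2 signals of 8.35 and 7.78. These lie well above the guide, so the remark on falls at weak signals does not cover it. Whether the share of fibroblasts differed was not tested. Of the smooth muscle and pericyte list, 3 of 6 markers were higher, with sums of 563 and 714. The brightest, *Notch3* (8.10 and 8.47) and *Rgs5* (6.95 and 7.74), weigh most in these sums. *Cspg4* was nearly equal, and *Myh11*, *Cnn1* and *Pdgfrb* were lower. Of 2 Schwann cell markers measured none was higher, with sums of 72.3 and 63.7. No marker had a signal of 0, since RMA gives none.

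Of the 10 ligand and antagonist genes, 9 had a higher signal in *Mll1* cKO myoblasts than in control myoblasts and 1, *Bmp4*, had a lower one, which turned slightly higher under 2 rescalings. A 2-fold difference, the cut-off the study used, was exceeded by *Grem1*, *Tgfb1*, *Inha* and *Bmp5*, all 4 upward. Over all genes, 41.6% were higher by any amount, and 2-fold was exceeded upward by 1.16% and downward by 0.11%. The median log2 difference (*Mll1* cKO minus control) was 0.75 for the 10 genes and -0.05 for all genes, and nothing is read from the contrast since the genes were chosen with it known. A smaller difference of 1.5-fold was exceeded by 6 of the 10, *Tgfb2* and *Inhba* being the additional ones, and by 4.86% of all genes in the same direction. Of the 10, 7 had signals above the odorant receptor guide in both arrays. *Bmp4* was below it in both, and *Bmp5* and *Mstn* were below it in the control array alone.

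**Figure D1:**
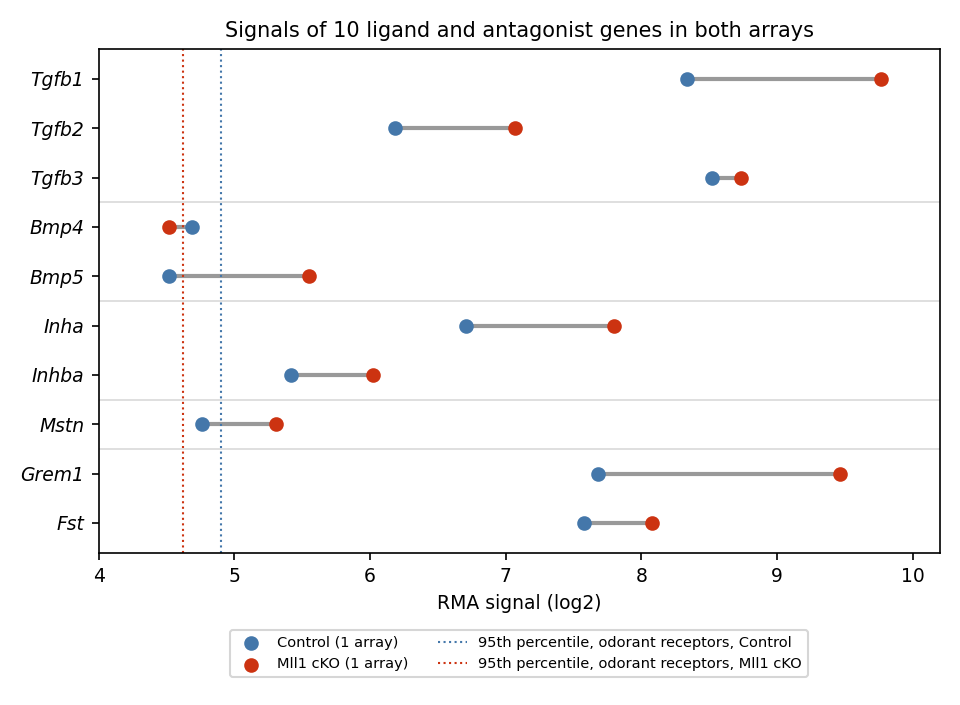
Log2 RMA signal of the 10 genes, grouped by role, with 1 point for the control array (blue) and 1 for the *Mll1* cKO array (red), and dotted lines at the 95th percentile of 1035 odorant receptor probe sets in each array. The longest segments are those of *Grem1* (7.68 to 9.46) and *Tgfb1* (8.33 to 9.77), and the control points of *Bmp4*, *Bmp5* and *Mstn* lie left of the control guide at 4.90. Positions compare the arrays within a gene, since probe sets of different genes are not on a common scale.

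The promoters of the 4 genes over 2-fold are shown because MLL1 contains a zinc finger that binds unmethylated CpG dinucleotides, and CpG content is a feature that the choice of the genes did not use. The stretches are the 250 bases before the annotated start, 5′ to 3′ on the strand of the gene, from RefSeq on GRCm38.p6, with every CpG in capitals. They lie at chr2:113758649-113758898, minus strand for *Grem1*, chr7:25686752-25687001, plus strand for *Tgfb1*, chr1:75507359-75507608, plus strand for *Inha*, and chr9:75775115-75775364, plus strand for *Bmp5*.
Grem1: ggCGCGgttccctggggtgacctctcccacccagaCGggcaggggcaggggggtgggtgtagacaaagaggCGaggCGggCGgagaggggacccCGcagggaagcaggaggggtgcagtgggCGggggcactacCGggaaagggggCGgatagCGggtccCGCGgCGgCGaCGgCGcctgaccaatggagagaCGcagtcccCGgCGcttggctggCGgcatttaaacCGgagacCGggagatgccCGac
Tgfb1: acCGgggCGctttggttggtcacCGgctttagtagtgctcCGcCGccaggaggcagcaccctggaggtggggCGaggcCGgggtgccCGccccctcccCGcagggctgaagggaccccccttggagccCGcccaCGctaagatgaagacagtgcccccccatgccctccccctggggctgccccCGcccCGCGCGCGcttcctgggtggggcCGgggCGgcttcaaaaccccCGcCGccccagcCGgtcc
Inha: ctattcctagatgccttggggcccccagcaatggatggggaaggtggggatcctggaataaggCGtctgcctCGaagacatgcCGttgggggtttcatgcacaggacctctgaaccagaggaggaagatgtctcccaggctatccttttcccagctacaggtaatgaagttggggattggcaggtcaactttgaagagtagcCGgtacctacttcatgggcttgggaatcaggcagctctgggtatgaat
Bmp5: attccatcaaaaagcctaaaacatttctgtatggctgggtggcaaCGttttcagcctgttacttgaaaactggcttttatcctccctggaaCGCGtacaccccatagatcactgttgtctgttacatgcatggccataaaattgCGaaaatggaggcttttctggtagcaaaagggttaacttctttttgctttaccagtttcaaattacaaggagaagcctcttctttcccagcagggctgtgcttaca

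The 4 stretches fall into 2 kinds. *Grem1* holds 24 CpG and *Tgfb1* holds 21, with a GC content of 72.0% and 75.2%, and 12.0% and 16.3% of 32851 RefSeq promoters of the same length have as many CpG or more. *Inha* and *Bmp5* hold 4 CpG each, fewer than the median of 6 over all promoters, with a GC content of 53.6% and 42.8%. Of the genes under 2-fold that were matched, *Bmp4* holds 11 CpG, *Tgfb2* holds 8, and *Inhba* and *Mstn* hold 3 each. The genes over 2-fold thus hold both the highest and some of the low CpG counts of the 8. No matched gene under 2-fold holds as many as *Grem1* or *Tgfb1*, but with 8 genes nothing is read from this. These arrays measure neither methylation nor MLL1 binding, and a direct action of MLL1 at these promoters was not tested. In all, 8 of the 10 genes had a promoter in the table, and those of *Tgfb3* and *Fst* were not examined.

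**Figure D2:**
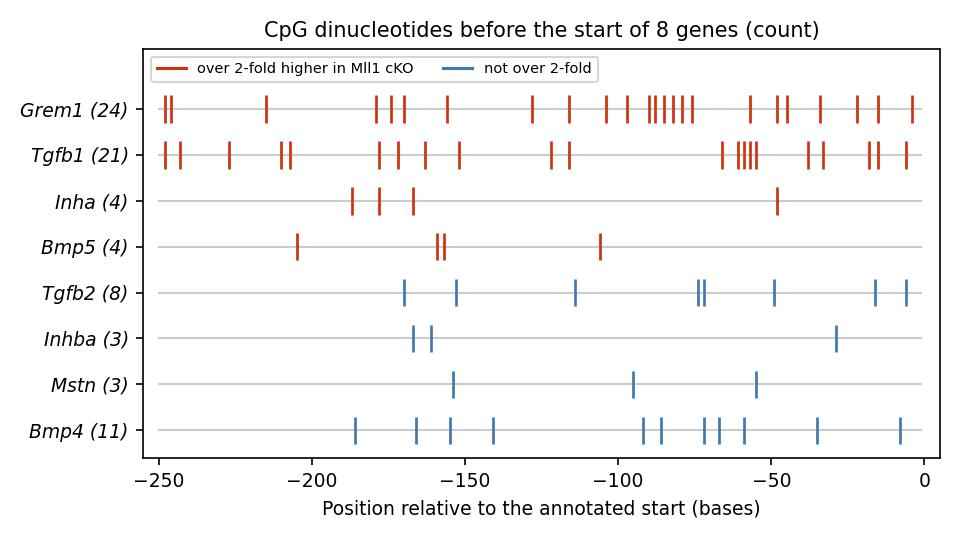
Positions of CpG dinucleotides in the 250 bases before the annotated start of 8 of the genes, in order of their log2 difference, with the count of CpG in brackets and red for the 4 genes over 2-fold higher in *Mll1* cKO. *Grem1* (24) and *Tgfb1* (21) hold the most, in clusters with gaps between them, while *Inha* and *Bmp5* hold 4 each.

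The same stretches were searched on both strands for short motifs of factors that act in this pathway or in myoblasts, and a match is a string of letters, not a bound site. The SMAD core CAGAC occurred in 5 of 8 promoters, against 42.2% of all promoters. *Tgfb2* and *Mstn* had 2 matches each, *Grem1*, *Inha* and *Bmp5* had 1 each, and *Tgfb1*, *Bmp4* and *Inhba* had none. *Grem1* also held the GC-rich SMAD motif GGCGCC, which 9.59% of promoters hold, from 78 to 73 bases before its start. The TATA box letters TATAAA occurred in *Tgfb2*, from 31 to 26 bases before the start, in *Mstn*, from 29 to 24, and in *Inhba*, from 91 to 86, against 12.4% of all promoters. The AP-1 motif TGANTCA occurred in *Mstn* alone (6.75% of all promoters). The E-box CAGCTG, favoured by MYOD, and the homeodomain core TAATTA occurred in none of the 8, against 13.0% and 4.84%.

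The 3 TGFβ ligands bind the same receptors and are secreted as latent complexes. *Tgfb1* had a log2 signal of 8.33 in control and 9.77 in *Mll1* cKO, a log2 difference of 1.43 (2.70-fold). This was the 63rd highest difference of 19938 genes. *Tgfb2*, an isoform prominent in development, had log2 signals of 6.19 and 7.07, a log2 difference of 0.88, and was 1.84-fold higher. *Tgfb3*, known from palate fusion, had the near equal signals of 8.52 and 8.74, a log2 difference of 0.21, and was 1.16-fold higher. All isoforms were thus higher in the *Mll1* cKO array, in the order *Tgfb1*, *Tgfb2*, *Tgfb3* by size of difference. All genes were divided by mean signal into 10 equal groups. The difference of *Tgfb1* was reached by 0.10% of the genes in its group, that of *Tgfb2* by 4.31% and that of *Tgfb3* by 32.1%. Such shares, here and below, count the gene itself. They only describe, since the genes were chosen with these differences known.

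Of the BMP ligands, *Bmp5* passed 2-fold at weak signals and *Bmp4* has no settled direction. *Bmp5*, a ligand of skeletal patterning, had a log2 signal of 4.52 in control and 5.55 in *Mll1* cKO, a log2 difference of 1.03 (2.05-fold). Both signals are weak, the control one lying within the range of odorant receptors, and neither passed a signal of 7 or 8, the floors that the study's methods set for the lower and the higher genes they list. *Bmp4*, which maintains satellite cell proliferation in some settings, had log2 signals of 4.68 and 4.52, both within the odorant receptor range, and a log2 difference of -0.17. Its sign turned to a log2 difference of 0.03 with the trend on signal removed and to 0.01 after a second quantile normalization, so no direction is given for it.

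The inhibin α subunit *Inha* pairs with a β subunit to form inhibin, which opposes activin, whereas 2 copies of the βA subunit *Inhba* form activin A. *Inha* had a log2 signal of 6.71 in control and 7.80 in *Mll1* cKO and was 2.13-fold higher, with a log2 difference of 1.09. Its log2 difference stayed over 2-fold under the 3 rescalings tried, but at the lowest, 1.00 after a second quantile normalization, it only just did. *Inhba* had the weaker signals of 5.41 and 6.02 and was 1.53-fold higher, with a log2 difference of 0.61. *Inhbb*, the βB subunit, which is no member of the group, was at 6.79 on both arrays. The α subunit thus had the largest difference of the subunits named here.

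Myostatin, encoded by *Mstn*, limits muscle mass. Its gene had log2 signals of 4.76 in control and 5.31 in *Mll1* cKO, a log2 difference of 0.55 (1.46-fold), and the control signal was within the odorant receptor range. Among genes of similar mean signal, 2.96% had a difference as high or higher.

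The antagonists were both higher. *Grem1* encodes gremlin 1, which binds BMP2, BMP4 and BMP7, and had a log2 signal of 7.68 in control and 9.46 in *Mll1* cKO. Its log2 difference of 1.78 (3.44-fold) was the 25th highest of all genes and the highest of the group, and 0.15% of genes of similar signal had one as high or higher. *Fst* encodes follistatin and had log2 signals of 7.58 and 8.08, a log2 difference of 0.50 (1.42-fold). The BMP genes whose products gremlin 1 binds had small differences at low signals. *Bmp2* went from 4.36 to 4.45 and *Bmp7* from 5.03 to 4.80.

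**Figure D3:**
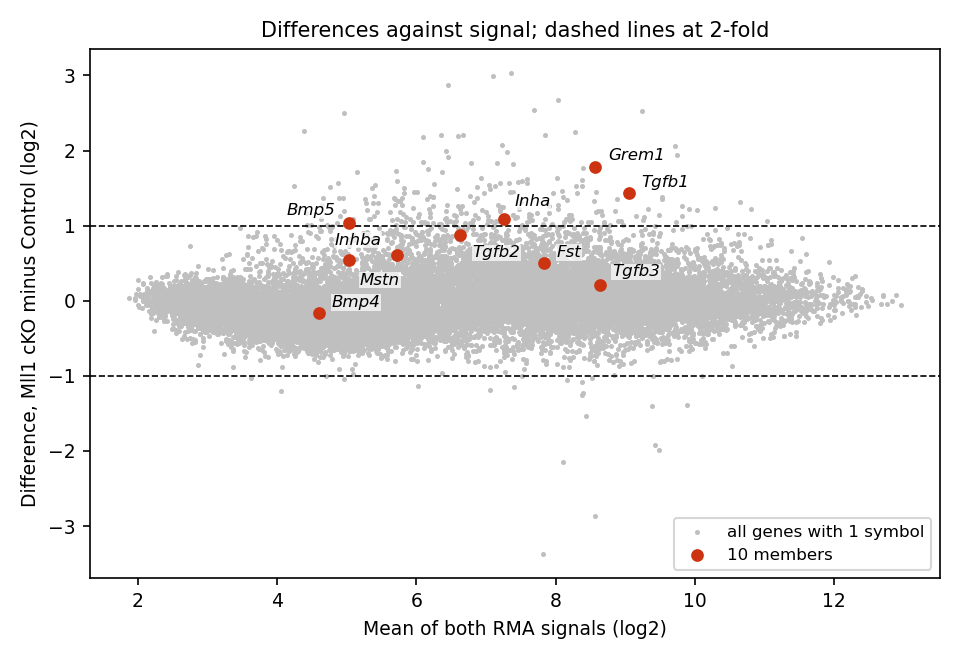
Log2 difference (*Mll1* cKO minus control) against the mean log2 signal of both arrays for 19938 genes (grey) and the 10 ligand and antagonist genes (red), with dashed lines at a 2-fold difference. *Grem1* and *Tgfb1* stand above the grey points of similar signal apart from a few, *Inha* and *Bmp5* lie just over the line, and *Tgfb3* and *Bmp4* lie within the mass of genes.

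Other genes of the pathway were taken by role from lists that leave the 10 out. These lists were chosen with earlier results of these data known, so their counts are a description. In 7 lists with 134 measured genes in all, 67 were higher, 66 were lower and 1 was equal. The 2-fold cut-off was passed upward by 3 and downward by none, and the median log2 difference was 0.00. Of 23 other ligands, 2 were higher and 20 lower, none over 2-fold, with a median of -0.24. Over all genes, 11091 of 19938 were lower, with a median of -0.05. That median was -0.07 with the trend on signal removed and -0.10 after a second quantile normalization. In this list 11 genes exceeded the odorant receptor guide in both arrays, and 1, *Gdf11*, had a signal over 7, at 7.93 and 8.02. *Gdf11*, a close relative of myostatin, thus was at nearly the same signal in both arrays.

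Among 20 other extracellular antagonists, 11 were higher and 9 lower, and none passed 2-fold. *Bgn*, which encodes the matrix proteoglycan biglycan that can bind TGFβ, came nearest, with log2 signals of 8.31 and 9.24 (1.90-fold). *Nbl1*, a BMP antagonist, had 9.19 and 9.37, *Fstl1*, a secreted follistatin-like protein, had 9.79 and 9.48, and *Crim1*, a membrane protein that binds BMPs, had 8.08 and 7.78. These antagonists thus went both ways, the log2 differences running from -0.48 to 0.93 around a median of 0.02.

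Of 21 genes for the latency and activation of TGFβ, 8 were higher and 13 lower, none over 2-fold. *Ltbp4*, which holds latent TGFβ in the matrix, had log2 signals of 7.88 and 8.33, and *Itgb6*, an integrin subunit that releases it, had 6.98 and 7.41. *Mmp14*, a membrane protease, had 8.95 and 9.31, while *Thbs1*, the gene of thrombospondin 1, an activator of latent TGFβ1, had 11.58 and 11.14.

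Of 18 receptors and coreceptors, 10 were higher and 8 lower, none over 2-fold, with differences from -0.45 to 0.28. The type I receptor gene *Tgfbr1* had log2 signals of 8.52 and 8.29, and the type II receptor gene *Tgfbr2* had 8.65 and 8.87. *Acvr1*, a type I receptor of BMPs and activins, had 8.73 and 8.86, and *Eng*, the coreceptor endoglin, had 6.91 and 7.19. Of 19 SMADs and intracellular regulators, 13 were higher and 6 lower, with a median of 0.13. *Smad3*, which carries TGFβ and activin signals, had 8.19 and 8.74 (1.46-fold), *Zfyve9*, which brings SMADs to receptors, had 7.43 and 7.86, and *Nedd4l*, a ubiquitin ligase for SMADs, had 8.91 and 9.26. *Tgif2*, a corepressor of SMAD2 and SMAD3, was the lowest, at 7.24 and 6.64.

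Genes known to respond to TGFβ or activin numbered 26, of which 18 were higher and 8 lower (median log2 difference 0.15). The 2 over 2-fold were *Bhlhe40*, a basic helix-loop-helix repressor, from 5.16 to 6.43 (2.42-fold), and *Il11*, a cytokine, from 5.73 to 6.76 (2.05-fold), both at signals under 7. At stronger signals, *Snai1*, a repressor of epithelial genes, had 7.40 and 8.08, *Cdkn2b*, a cyclin-dependent kinase inhibitor, had 8.46 and 9.11 (1.57-fold), and *Fn1*, the gene of fibronectin, had 11.66 and 12.18 (1.43-fold). *Col3a1*, a fibrillar collagen, was lower, at 8.12 and 7.67, as were *Col1a1*, at 6.58 and 6.43, and *Col1a2*, at 6.36 and 5.98. The feedback gene *Smad7*, induced by both branches, had 8.46 and 8.63. The response genes therefore went both ways, but the larger differences were upward. At 1.5-fold, 6 of the 26 were higher and 0 lower, while 4.86% of all genes were higher by that much. Nothing is read from that contrast, since the list was chosen with earlier results of these data known.

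Of 15 BMP response genes, 10 were higher and 5 lower, with a median of 0.08, or 0.04 after a second quantile normalization. *Msx2*, a homeobox gene, passed 2-fold with log2 signals of 5.84 and 6.86 (2.03-fold), but had a log2 difference of 0.98 after a second quantile normalization. *Id4*, an inhibitor of DNA binding, went from 6.45 to 7.43 (1.96-fold) and passed only when differences were centred on their median. *Sp7*, the osteoblast factor osterix, had 8.39 and 8.93, and *Smad9* had 7.39 and 7.66. The classical targets *Id1*, *Id2* and *Id3* had strong signals in both arrays, of 10.58 and 10.66, 11.97 and 12.14, and 10.22 and 10.11.

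**Figure D4:**
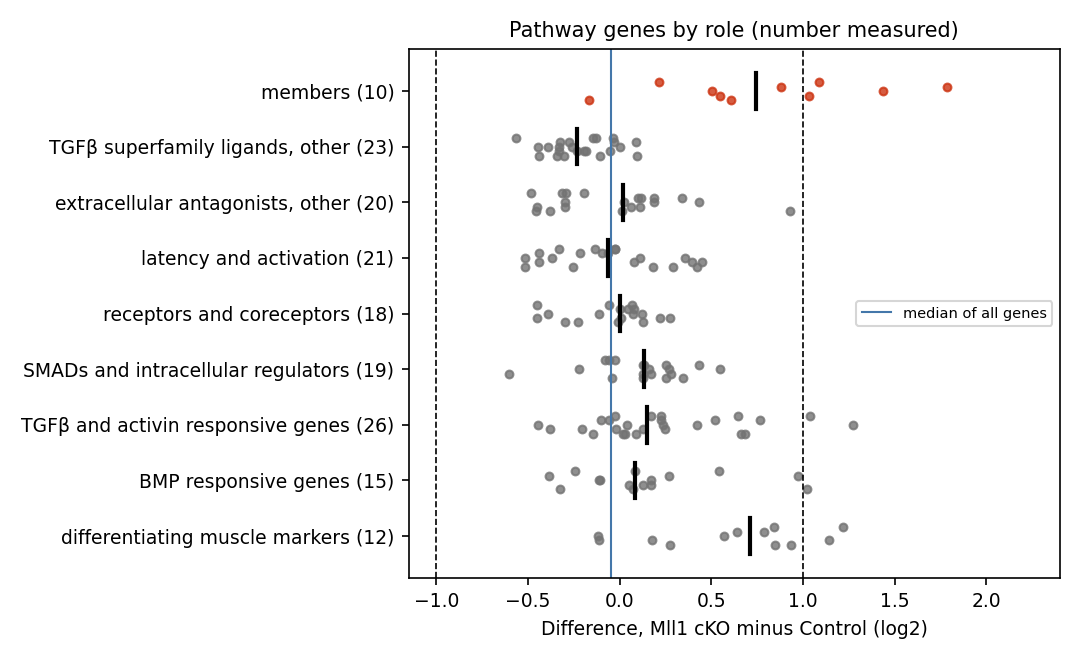
Log2 difference (*Mll1* cKO minus control) of each measured gene by list, with the number measured in brackets, black bars at the median of the list, a blue line at the median of all genes and dashed lines at 2-fold. The 10 ligand and antagonist genes, chosen with these differences known, reach 1.78, the receptors lie between -0.45 and 0.28, and the markers of differentiating muscle between -0.12 and 1.22.

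Most markers of differentiating muscle were higher alongside the ligand and antagonist genes. This list was chosen with earlier results of these data known, so its counts are a description. Of 12 markers, 10 had the higher signal in *Mll1* cKO and 2, *Ckm* and *Mymx*, the lower one, while 41.6% of all genes were higher. Their median log2 difference was 0.71, and their linear signals summed to 4220 in control and 7310 in *Mll1* cKO. *Tnni1*, slow troponin I, had log2 signals of 7.43 and 8.65, and *Mymk*, the fusion protein myomaker, had 8.91 and 10.05. These were the 2 over 2-fold, which 1.16% of all genes exceeded upward. *Ckm*, the muscle creatine kinase of mature fibres, had 5.87 and 5.76. *Myog*, the myogenin gene, had 7.30 and 7.94 (1.56-fold). The study described myogenin mRNA as unchanged and concluded that differentiation was not precocious. It drew on this array and on RT-qPCR of independent experiments, in which the fold change of myogenin was smaller than on the array. In RNA from whole cultures, a change in the share of cells of one kind and a change in RNA per cell cannot be told apart. The part of differentiation in the differences of *Grem1*, *Tgfb1* and the other members was not tested.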

How the data were processed

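The authors hybridised RNA of 1 control and 1 *Mll1* cKO culture to MoGene 1.0 ST arrays and normalized the raw data by RMA, as the submitters' processing notes also state. The deposited values are log2 signals of 35557 probe sets. No version of RMA is given in the sources used here. Of the probe sets, 6613 with the lowest, consecutive numbers and no symbol were taken as controls and left out. Of the other 28944, 21789 had 1 symbol in the platform annotation (updated by gene number to RefSeq symbols), 1621 had several and 5534 had none, which gave 19938 genes. A gene with several probe sets entered with their mean. Differences are *Mll1* cKO minus control, with a cut-off of 2-fold. No test, standard error or p-value was possible with 1 array per group.

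The members and lists were chosen with earlier results of these data known, and the odorant receptor guide was added after the values were opened. Named genes are the members and, per pathway list, genes over 2-fold and the 4 with the largest difference at a log2 signal over 7. *Inhbb*, *Bmp2*, *Bmp7*, *Col1a1*, *Col1a2*, *Smad7*, *Id1*, *Id3* and the cell type markers named lie outside this rule and were chosen after their values were seen. List genes without a probe set of 1 symbol were not analysed here. Calculations were tested on simulated data. Python 3.11.15, numpy 2.4.6, pandas 2.3.3, statsmodels 0.14.6 and matplotlib 3.10.9 were used.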

Additional observations from a re-analysis of the deposited data

How the results depend on the processing

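Alternatives were a centring of all differences, removal of a lowess trend on signal, a second quantile normalization, the brightest probe set of a gene, and other cut-offs and signal filters. The 9 higher members kept their direction and their side of the 2-fold cut-off under every rescaling, with log2 differences of 1.73 to 1.84 for *Grem1*, 1.38 to 1.49 for *Tgfb1*, 1.00 to 1.15 for *Inha* and 1.03 to 1.23 for *Bmp5*. *Bmp4* turned to 0.0318 without the trend and 0.0109 after quantile normalization. At 3-fold 1 member, *Grem1*, passed, and 3 passed with a signal over 7 and 2 with a signal over 8. No paired analysis was possible because each group has 1 array, which also bars leaving out a replicate. The cause of these shifts was not tested.

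Over all genes, 969 were higher and 401 lower at 1.5-fold, and 37 and 5 at 3-fold, against 232 and 22 at 2-fold. With a signal over 7 or over 8, 153 and 90 were over 2-fold higher. Of the TGFβ response genes, 6 passed at 1.5-fold, and 0 at 3-fold or with a signal over 7 or 8. Of the BMP response genes, 2 passed after centring or at 1.5-fold, and 0 after quantile normalization, at 3-fold or with a signal over 7 or 8. At 1.5-fold, 1 other antagonist was higher and 1 SMAD regulator lower. The median of the other ligands became 0.0938 with a signal over 7 or 8, where 1 gene was left. That of the latency genes became 0.0150 without the trend and 0.18 and 0.0782 with a signal over 7 and 8. The mean was -0.0342 for the other antagonists and -0.0559 for the receptors, whose median was -0.0247 without the trend and -0.0606 after quantile normalization.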
